A study of Homo sapiens with 24 samples.

Results

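The genes described here are 47 genes of the endoplasmic reticulum (ER) stress response, chosen by name from lists of ER chaperones, ER-associated degradation (ERAD) genes, sensors of the unfolded protein response and targets of the transcription factors ATF4 and CHOP, out of 16742 genes in the deposited tables. They fall into the ER chaperone branch with 15 genes, the sensors with 4, ERAD with 7 and the ATF4 branch with 21. The list called sensors holds the sensor genes ERN1, ATF6 and EIF2AK3 together with XBP1, which is not a sensor but a transcription factor. Total RNA was sequenced from 8 human cell lines with 3 libraries each, 24 in all. HCT116 is a near diploid colorectal carcinoma line, and RPE1 is a near diploid line of retinal pigment epithelium immortalized with hTERT. An asterisk marks lines that stably express histone H2B tagged with GFP. HCT116 5/4 has 4 copies of chromosome 5 and was compared by the authors with HCT116, HCT116* 8/3 c7 has 3 copies of chromosome 8 and was compared with HCT116*, RPE1 5/3 12/3 has 3 copies of chromosomes 5 and 12 and was compared with RPE1, and RPE1* 21/3 has 3 copies of chromosome 21 and was compared with RPE1*. No line was treated with a drug or a stressor. Each aneuploid line is a single derived line, for 8/3 c7 a numbered clone, so that a property of the clone and of the gained chromosome cannot be told apart.

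Each of the 4 tables holds, per gene, a mean of the normalized counts over the 6 libraries of an aneuploid line and its parental line. Only this mean was used. The columns of fold changes and p-values hold the authors' own comparison and were not used here, so that no aneuploid line is set against its parent below. Where 4 values of a gene are given without names, they stand in the order HCT116 5/4, then HCT116* 8/3 c7, then RPE1 5/3 12/3, then RPE1* 21/3. A table is named by its aneuploid line, but each value belongs to the line and its parent together, and it comes without an error or replicates. The comparisons are therefore between tables: the ER chaperone branch against the ATF4 branch in each table, the 2 RPE1 tables against the 2 HCT116 tables, and the tables of the same cell type against each other. With 2 tables against 2, an exact permutation test cannot give a p below 0.333, so no test was made, and the spread between the 2 tables of a cell type is the only measure of error. That spread mixes the biology of different lines with technical variation. In bulk RNA, fewer cells that express a gene and less RNA per cell cannot be told apart.

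The ER folds secreted and membrane proteins. When unfolded proteins accumulate, the sensors IRE1 (gene ERN1), ATF6 and PERK (gene EIF2AK3) are activated. IRE1 splices the XBP1 mRNA, and XBP1 and ATF6 then raise chaperone and ERAD genes through ER stress response elements in promoters. PERK phosphorylates the initiation factor eIF2alpha, which lowers general translation but favours that of ATF4, and other kinases do the same during amino acid shortage, heme shortage or infection. ATF4 raises genes of amino acid synthesis and transport through amino acid response elements, and with prolonged stress the gene DDIT3, which encodes CHOP.

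The known elements of the ER chaperone and the ATF4 branch stood in different promoters, and the windows below are shown because they carry them. RefSeq windows of the build GRCh38.p14, from 250 bases before to 50 bases after a gene's start, were found by symbol for 40 of the 47 genes. The 7 without an entry were PDIA3, DERL1, DERL3, PSPH, SHMT2, NUPR1 and ALDH1L2. The ER stress response element (ERSE) was searched on both strands as CCAAT, then 9 bases of any kind, then CCACG. It was present in 6 of 14 promoters of the ER chaperone branch and in 1 of 4 of the list of sensors, that of XBP1. It was present in 0 of 5 of ERAD and 0 of 17 of the ATF4 branch, against 25 of 27305 genes with a promoter (0.0916%). In each line the capitals mark the whole match, with its 9 unspecified bases between CCAAT and CCACG, read along the strand named.
HSPA5 (chr9:125241386-125241414, minus strand): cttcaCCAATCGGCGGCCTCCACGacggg
HSP90B1 (chr12:103930211-103930239, plus strand): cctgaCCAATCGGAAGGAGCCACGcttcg
CALR (chr19:12938379-12938407, minus strand): accgaCCAATGATGGTCGACCACGcgtgg
CANX (chr5:179698773-179698801, plus strand): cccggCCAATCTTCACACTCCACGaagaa
PDIA6 (chr2:10812848-10812876, minus strand): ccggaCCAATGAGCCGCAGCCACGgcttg
CRELD2 (chr22:49918549-49918577, minus strand): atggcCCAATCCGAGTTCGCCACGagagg
XBP1 (chr22:28800598-28800626, minus strand): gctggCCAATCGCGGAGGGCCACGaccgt

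The match in HSPA5, the gene of the chaperone BiP, lay at -66 relative to the start. HSP90B1 held a second match on the opposite strand. A related element, ERSE-II, was searched on both strands as ATTGG, any base, then CCACG, and was present in 2 of the 14 chaperone promoters and 1 of the 5 ERAD promoters, against 19 of 27305 genes (0.0696%). The capitals again mark the match. HYOU1 held 2 matches, of which the one at -79 is shown.
SDF2L1 (chr22:21642105-21642133, minus strand): agggttttgATTGGTCCACGcttccgagg
HYOU1 (chr11:119057265-119057293, plus strand): cgcgtactcATTGGACCACGtcccaggcc
HERPUD1 (chr16:56932016-56932044, plus strand): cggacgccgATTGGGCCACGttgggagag

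The element TGACGTGG, known as the unfolded protein response element, was present in HYOU1 alone among the 40 genes, in a place that overlaps the second ERSE-II match of HYOU1, and in 0.927% of all genes. The amino acid response element, searched on both strands as TGATGNAA, was present in 4 of 17 promoters of the ATF4 branch and in 0 of 14 of the ER chaperone branch, against 1217 of 27305 genes (4.46%). It was also present in HERPUD1, which thus held an element of both kinds. In ASNS, which encodes asparagine synthetase, the match lay at -68. The capitals mark the match.
ASNS (chr7:97872458-97872486, minus strand): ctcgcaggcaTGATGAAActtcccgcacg
CHAC1 (chr15:40953251-40953279, minus strand): ctggcaggagTGATGCAAcggcaggggag
ATF3 (chr1:212565206-212565234, plus strand): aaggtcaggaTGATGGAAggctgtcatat
CEBPG (chr19:33374061-33374089, plus strand): gcgcggcgtcTGATGCAAcctgccggcaa
HERPUD1 (chr16:56931955-56931983, minus strand): gggcacgggcTGATGCAAcccgccgcgtc

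**Figure D1:**
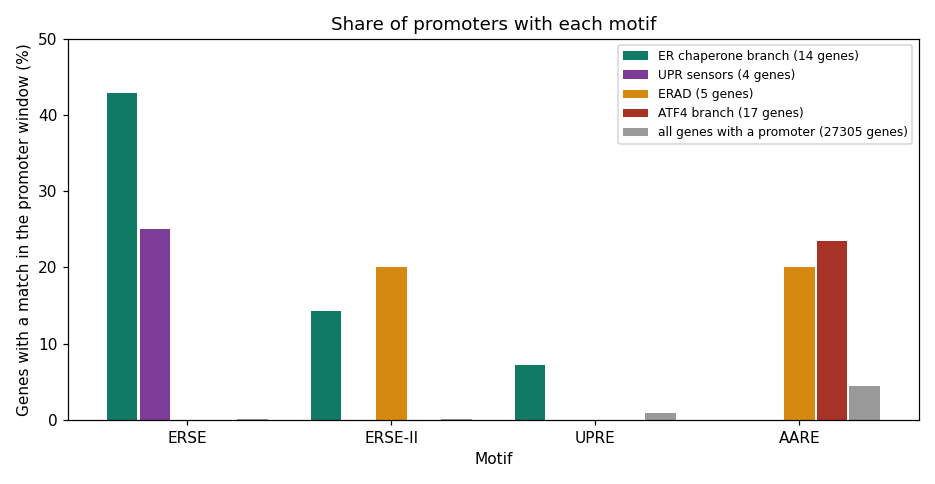
Share of promoter windows, in percent of the genes of each list with a window, that hold each of the 4 motifs on either strand, with all genes in grey. ERSE stood in 6 of 14 chaperone promoters and in none of 17 of the ATF4 branch, and the amino acid response element (AARE) in 4 of 17 and in none of 14.

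A match is a description of the letters in the window. ERSE and ERSE-II together covered HSPA5, HSP90B1, CALR, CANX, PDIA6, CRELD2, SDF2L1 and HYOU1 in the chaperone branch. Neither PDIA4 nor P4HB, DNAJB9, DNAJB11, DNAJC3 or MANF held one of these letters in this window, which says nothing about the binding of a factor elsewhere.

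The labelled cell types were checked first. CDH1, CDX2 and KRT20, markers of colorectal epithelium, were listed in the HCT116 tables and not in the RPE1 tables, and EPCAM had means of 4192 and 5683 in the HCT116 tables against 4.77 in the RPE1 5/3 12/3 table. In all, 7 of 10 colorectal markers had a mean of at least 10 in each HCT116 table and 2 in each RPE1 table, the keratins KRT8 and KRT18, while VIL1 and CDX1 were listed in none. Of 9 markers of retinal pigment epithelium, 6 had a mean of at least 10 in the RPE1 5/3 12/3 table, 4 in the RPE1* 21/3 table and 3 in each HCT116 table. OTX2 and RLBP1 were listed in the RPE1 tables alone, RLBP1 at 32.4 and 4.77. BEST1 and MITF were higher there, with MITF at 1439 and 1124 against 67.4 and 62.0 in the HCT116 tables. The pigment genes TYR, TYRP1 and DCT were listed in no table. RPE65 was lower in the RPE1 tables, at 10.4 and 4.58, than in the HCT116 tables, at 287 and 194. PMEL, a further pigment gene, was also lower in RPE1, at 17.8 and 14.8 against 97.1 and 137. The counts of markers past 10 in RPE1 thus include genes that were higher in HCT116. The 3 mesenchymal markers moved with the cell type: VIM had means of 481, 106, 175391 and 110087, FN1 had 1210, 677, 368294 and 373337, and CDH2 had 7558 and 7766 in the RPE1 tables and at most 5.01 in the HCT116 tables. Their part in the differences between RPE1 and HCT116 below was not tested. The 3 leukocyte and 2 endothelial markers were at or below 14.6 in every table or not listed.

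Most members were measured in every table. A mean of at least 10 was reached by 45 of the 47 genes in the HCT116 5/4 table, 44 in the HCT116* 8/3 c7 table and 46 in each RPE1 table. For comparisons between tables, the means were divided by their sum over the 13107 genes listed in all tables, which was between 1.82e+07 and 2.205e+07 normalized counts, and scaled so that the levels of these genes sum to 1000000 in each table (CPM). A level per kb was also divided by the length of the longest coding transcript. Genes were compared when listed in all tables with a mean over them of at least 10, which held for 12764 genes and 45 members. DERL3, an ERAD gene of secretory cells, was not compared, since it was not listed in the HCT116 5/4 table and had means of 2.17 in the HCT116* 8/3 c7 table and of 24.7 and 23.9 in the RPE1 tables. VLDLR, the very low density lipoprotein receptor, was listed in neither HCT116 table and had means of 263 and 636 in the RPE1 tables.

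**Figure D2:**
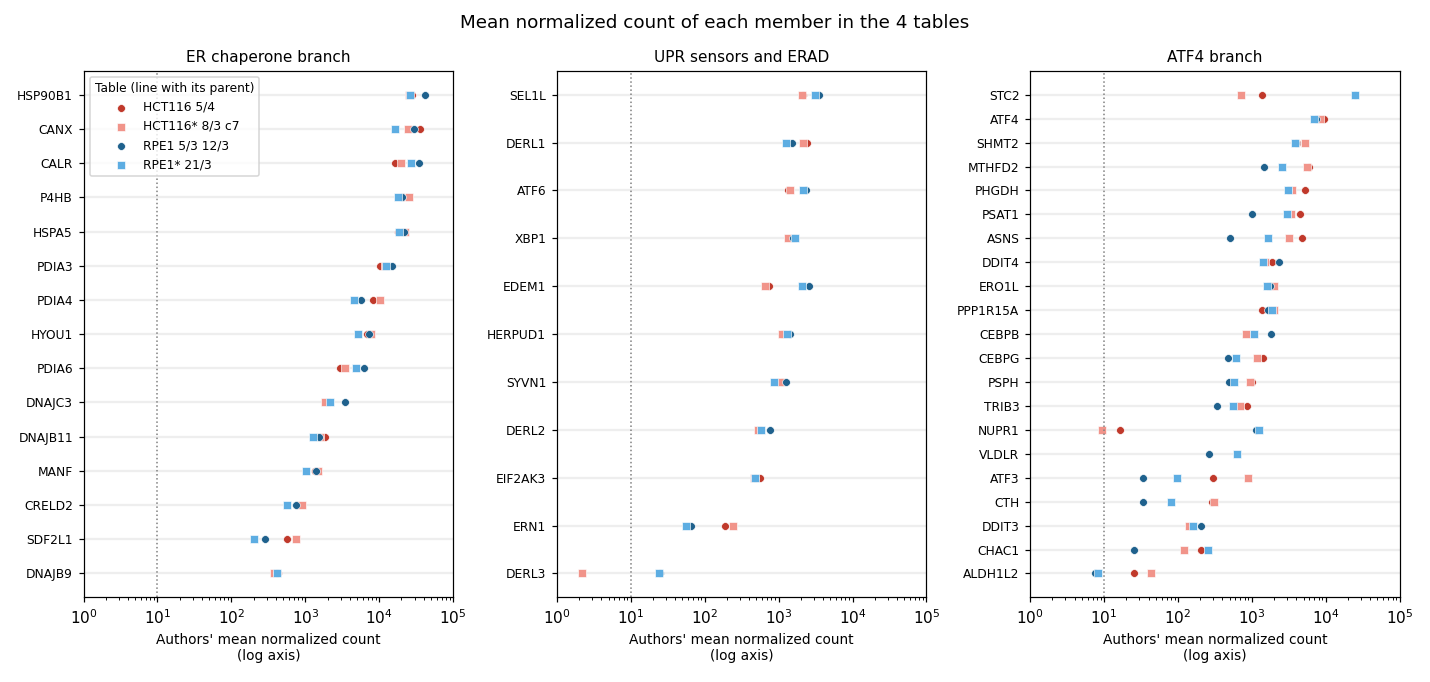
Mean normalized count (log axis) of the 47 genes in the 4 tables, each named by its aneuploid line and averaged over the line and its parent, with a dotted line at 10. SDF2L1 has the widest spread of the chaperone genes, from 202 to 741, and CHAC1, ASNS, CTH, ATF3, STC2 and NUPR1 are spread more widely.

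Per kb of transcript, the ER chaperone branch lay at nearly the same median level in the 4 tables. On the same scale the median of the ATF4 branch was lower in the RPE1 5/3 12/3 table than in the others. Gene by gene, the median log2 difference of RPE1 from HCT116 was -0.32 over the chaperone branch, against -0.34 over all genes. The median level of the 15 chaperone genes was 80.5, 85.6, 89.0 and 85.0 CPM per kb in the order of tables given above. The median of the 20 genes of the ATF4 branch was 21.0, 22.5, 12.2 and 23.2 CPM per kb in the same order. The ratio of the medians, chaperone over ATF4, was thus 3.83, 3.81, 7.27 and 3.66. The ratio of the RPE1 5/3 12/3 table stood above the others. Without the correction for length the log2 ratios were 2.31, 2.88, 2.53 and 1.87, so that its place at the top did not hold. The closeness of the other tables also depended on the genes kept, since with a mean of at least 100 the log2 ratio was 1.84 and 1.89 in the HCT116 tables, 2.58 in the RPE1 5/3 12/3 table and 1.44 in the RPE1* 21/3 table. Summed over genes, the chaperone branch took 0.818%, 0.801%, 0.858% and 0.764% of all counts, and the ATF4 branch 0.243%, 0.207%, 0.238% and 0.304%. STC2 alone, with its high mean in both RPE1 tables, weighs on the sum of the ATF4 branch there.

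**Figure D3:**
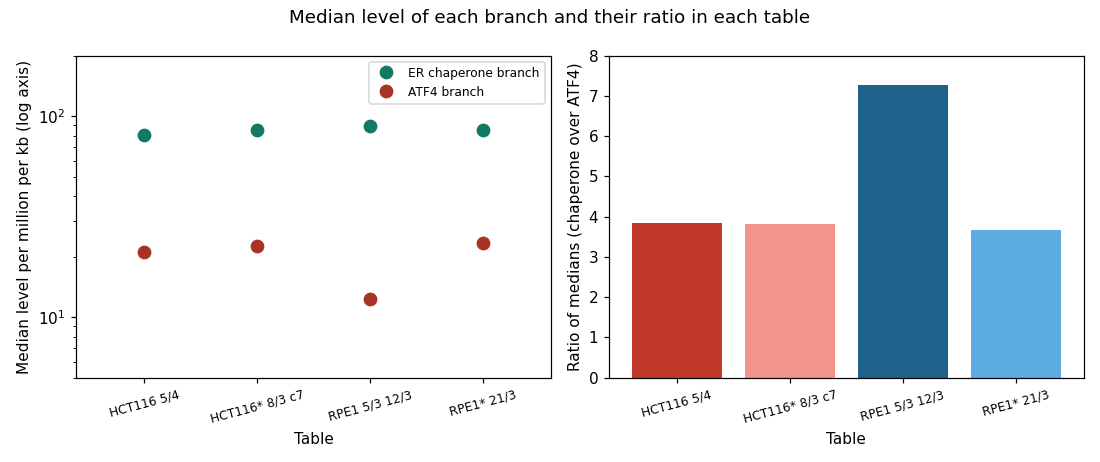
Left, median level CPM per kb (log axis) of the 15 ER chaperone genes and the 20 compared genes of the ATF4 branch in each table. Right, ratio of these medians, which was 7.27 in the RPE1 5/3 12/3 table and between 3.66 and 3.83 in the others; there are no replicates and so no error bars.

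Within the chaperone branch, 3 genes were the most abundant per kb. HSP90B1, the ER member of the HSP90 family on chromosome 12, had means of 27392, 25250, 41091 and 26176. The highest of these stood in the table of the line with 3 copies of chromosome 12, although 3 of the 6 libraries behind it are of the parental line, and its part in the result was not tested. CALR, the lectin chaperone calreticulin, had means of 16240, 19820, 34903 and 27305. Both RPE1 means of CALR were above both HCT116 means. P4HB, a protein disulfide isomerase, had means of 20933, 25632, 20415 and 18071, and the HCT116 and RPE1 levels were close.

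HSPA5, the HSP70 of the ER, whose product also holds the sensors inactive, was nearly level. Its means were 17967, 22247, 21487 and 18549, and the log2 difference of RPE1 from HCT116 was -0.062. CANX, the membrane lectin calnexin on chromosome 5, had means of 35480, 24463, 29433 and 16173. It was lower in the table of the H2B-GFP lines within each cell type, with log2 differences of level of -0.61 in HCT116 and -0.59 in RPE1, so that the cell types overlapped. The tables with the higher CANX means are those with a line that gained chromosome 5, and the part of that gain was not tested.

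Of the 15 chaperone genes, 1 was at least 2-fold apart between the cell types in every pair of tables. SDF2L1, a component of a chaperone complex with BiP, had means of 563, 741, 287 and 202. It was 2.80-fold lower in RPE1, with a log2 difference of -1.49 and a range over the 4 pairs of tables from -1.76 to -1.21. It did not pass with median-of-ratios scaling or with the means as deposited. PDIA4, a disulfide isomerase, was next at -0.91, with means of 8276, 10155, 5733 and 4517. CALR and PDIA6 were 0.72 and 0.71 higher in RPE1, and the other 11 genes lay between -0.49 and 0.41. Across all genes, 8.65% were called higher in RPE1 and 17.2% lower by the same rule, so that 1 of 15 is no larger a share.

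These differences depend on the scaling, because the median of all genes was itself -0.34. With median-of-ratios scaling each log2 difference is 0.34 higher, and 10 members change sign, namely HSPA5, P4HB, DNAJB9, DNAJB11, HYOU1, MANF, EIF2AK3, SYVN1, SHMT2 and ERO1L. Relative to the median of all genes, the chaperone branch lay at 0.021, the sensors at 0.29, ERAD at 0.59 and the ATF4 branch at -0.37. Calls over all genes split into 33.5% higher and 66.5% lower in RPE1 for CPM, and into 51.5% and 48.5% with median-of-ratios scaling.

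Among the sensors, ERN1 differed most. It had means of 187 and 238 in the HCT116 tables and 64.6 and 55.8 in the RPE1 tables, 3.66-fold lower in RPE1, and the groups did not overlap. ATF6 had means of 1339, 1422, 2339 and 2163, with a log2 difference of 0.64. EIF2AK3, which encodes PERK, had means of 568, 469, 478 and 481 and a difference of -0.17. XBP1, the most abundant of the 4 per kb, had means of 1653, 1321, 1546 and 1692, and its RPE1 and HCT116 values overlapped. Whether the XBP1 mRNA was spliced by IRE1 cannot be read from counts per gene. ERN1 was the 1 gene of 4 called lower, and 0 of 4 were called higher, against 17.2% and 8.65% of all genes, so that nothing is read from these counts.

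ERAD genes return misfolded proteins to the cytosol for degradation. EDEM1, a mannosidase-like protein that marks glycoproteins for this route, had means of 732 and 646 in the HCT116 tables and 2583 and 2077 in the RPE1 tables. It was 3.23-fold higher in RPE1, the 1 gene of 6 compared that passed, where 8.65% of all genes did, and it passed under each scaling. SEL1L, the partner of the ubiquitin ligase SYVN1, had means of 2106, 2043, 3495 and 3070 and a log2 difference of 0.60. DERL1, a channel subunit on chromosome 8, had means of 2394, 2155, 1524 and 1255 and a difference of -0.78. The DERL1 mean in the table of the line that gained chromosome 8 also holds the parental line, and the part of that gain was not tested. HERPUD1, with both kinds of element in its promoter, had means of 1101, 1108, 1425 and 1309, and SYVN1 had 1124, 1076, 1248 and 859. DERL2 stood between 525 and 755 in the 4 tables.

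The ATF4 branch held the widest differences between the cell types. Of the 20 genes compared, 4 were lower in RPE1 (20.0%, against 17.2% of all genes) and 2 were higher (10.0%, against 8.65%), so that the shares were near those of all genes. Their median difference was -0.71, with 14 below 0 and 6 above, where 65.2% of all genes were below 0. The median rested much on the RPE1 5/3 12/3 table: it was -0.29 without that table, -0.94 without the RPE1* 21/3 table, and -0.53 and -0.94 without the HCT116 5/4 and the HCT116* 8/3 c7 table. Over the 45 members, 6 (13.3%) were called lower in RPE1 and 3 (6.67%) higher, against 17.2% and 8.65% of all genes. Without the RPE1* 21/3 table, where fewer pairs have to pass, 12 were called lower. The share of all genes at that setting was not computed, so that nothing is read from this count.

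The 2 genes that were higher in RPE1 encode a secreted and a nuclear protein. STC2, the glycoprotein stanniocalcin 2 on chromosome 5, had means of 1377 and 722 in the HCT116 tables and 25038 and 24601 in the RPE1 tables. It was 23.9-fold higher in RPE1. NUPR1, a small stress-induced chromatin protein, had means of 16.5 and 9.33 in the HCT116 tables and 1122 and 1240 in the RPE1 tables. Its log2 difference was 6.51, from means near the limit of 10 in HCT116, and 5.17 with a pseudocount of 1. Both genes passed under each scaling. NUPR1 was left out where each mean had to reach 10, and the members higher in RPE1 then fell from 3 to 2.

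Of the transcription factors, ATF4 itself was abundant and differed little. Its means were 9422, 8468, 7363 and 6934, with a log2 difference of -0.38, and regulation of ATF4 by translation is not seen in mRNA. DDIT3 had means of 161, 141, 204 and 159, or 8.59, 7.17, 9.25 and 8.75 CPM, so that the levels in RPE1 were above those in HCT116 by little, with a log2 difference of 0.20. ATF3, a repressor induced by many stresses, had means of 300, 886, 33.4 and 96.3. It was lower in RPE1 in every pair of tables, with log2 differences from -4.89 to -1.60. CEBPG, a partner of ATF4, had means of 1417, 1187, 480 and 619, while CEBPB had 1033, 837, 1786 and 1082 and moved the other way.

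The other 3 genes called lower in RPE1 encode enzymes of amino acid and folate metabolism. CTH, which makes cysteine from cystathionine, had means of 286, 305, 33.6 and 80.3, a 5.92-fold difference. MTHFD2, a mitochondrial folate enzyme, had means of 5906, 5631, 1441 and 2551, 3.14-fold lower, but missed the limit with median-of-ratios scaling. ALDH1L2, also a mitochondrial folate enzyme, was low throughout, with means of 25.7, 43.1, 7.61 and 8.19. Its log2 difference of -2.14 became -0.98 with a pseudocount of 1, so that its call was lost, and it was left out where each mean had to reach 10. ASNS had means of 4712, 3164, 514 and 1664, and PSAT1, an enzyme of serine synthesis, had 4478, 3397, 1005 and 3008. Neither was past 2-fold in every pair, because the RPE1* 21/3 table lay closer to the HCT116 tables. PHGDH, the first enzyme of serine synthesis, had means of 5253, 3453, 3055 and 3092. PSPH, the last, had 995, 937, 485 and 568, and how reads were split between PSPH and its pseudogene copy was not examined, so that its counts are uncertain. SHMT2 had means of 4097, 5188, 3898 and 3835, all of similar size.

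**Figure D4:**
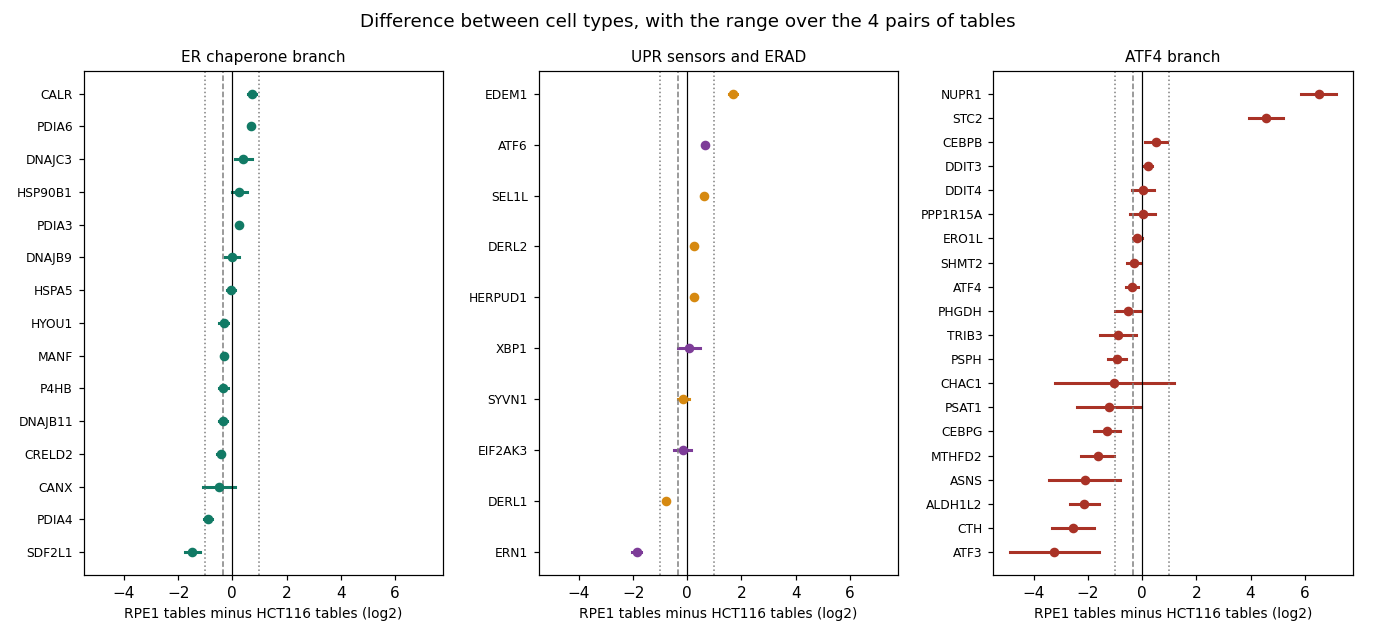
Log2 difference of the 2 RPE1 tables from the 2 HCT116 tables for the 45 compared genes (point, mean; bar, lowest to highest over the 4 pairs of tables), with dotted lines at 2-fold and a dashed line at the median of all genes, -0.34. NUPR1, STC2 and EDEM1 lie to the right, and ATF3, CTH, ALDH1L2, MTHFD2, ERN1 and SDF2L1 to the left in every pair; CHAC1 has the longest bar.

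The tables of the same cell type were then set against each other, a comparison chosen after the values were seen. In RPE1 part of the ATF4 branch was higher in the RPE1* 21/3 table, while the chaperone genes stayed within 2-fold. Of the 20 compared genes of the ATF4 branch, 6 (30.0%) were at least 2-fold higher in the RPE1* 21/3 table than in the RPE1 5/3 12/3 table, where 1.79% of all genes were. None was 2-fold lower, against 1.28% of all genes. In the other 3 lists, 0 of 25 genes passed in either direction, which is near the shares of all genes. The median difference was 0.43 over the ATF4 branch, -0.076 over the chaperone branch and 0.0046 over all genes, and 17 of the 20 genes were above 0, against 50.8% of all genes.

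The largest difference was that of CHAC1, which degrades glutathione. Its means were 206 and 122 in the HCT116 tables, 25.6 in the RPE1 5/3 12/3 table and 256 in the RPE1* 21/3 table. The level in the latter was 12.1-fold that in the former, and 0.0470% of all genes had a larger difference. This size rested on the low level in the RPE1 5/3 12/3 table, and with a pseudocount of 1 the log2 difference of 3.598 became 2.80. ASNS was 3.93-fold higher, PSAT1 3.63-fold, ATF3 3.49-fold, CTH 2.89-fold and MTHFD2 2.15-fold. TRIB3, a pseudokinase that restrains ATF4, stood just under the limit at 1.96-fold, with means of 855, 691, 340 and 551, and CEBPG was 1.56-fold higher. Of the 4 ATF4 branch genes with an amino acid response element in the window, ASNS, CHAC1 and ATF3 passed 2-fold and CEBPG did not, while PSAT1, CTH and MTHFD2 passed without a match in the window.

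Several ATF4 branch genes did not follow. DDIT3 differed by -0.080, ATF4 by 0.19, STC2 by 0.25 and ERO1L, the oxidase that recharges disulfide isomerases, by 0.15 on the log2 scale. DDIT3 lies on chromosome 12 and STC2 on chromosome 5, which the line of the RPE1 5/3 12/3 table gained. The part of that gain in their values was not tested. DDIT4, an inhibitor of mTORC1 signalling, and CEBPB differed by -0.43 and -0.45. PPP1R15A, the subunit that directs dephosphorylation of eIF2alpha, was higher in the table of the H2B-GFP lines in both cell types, by 0.43 in RPE1 and 0.49 in HCT116. Its means were 1366, 2012, 1663 and 1854.

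In the chaperone branch the differences between the RPE1 tables ran from -0.59 for CANX to 0.28 for DNAJB9, a co-chaperone that restrains IRE1. HSPA5 differed by 0.066 and SDF2L1 by -0.23. DNAJC3, an inhibitor of PERK, and HSP90B1 differed by -0.39 and -0.37. The other 9 genes, among them the isomerases PDIA3 and P4HB, the co-chaperone DNAJB11, the nucleotide exchange factor HYOU1 and the secreted factors CRELD2 and MANF, lay between -0.23 and 0.10. The 4 genes of the list of sensors were higher in the RPE1* 21/3 table, by at most 0.41 for XBP1.

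In HCT116 the ATF4 branch leaned the other way, with 14 of 20 genes lower in the HCT116* 8/3 c7 table, while 10 of 15 chaperone genes were higher. Of all genes, 48.6% were higher in that table. Their median log2 difference was -0.0093, and the median size of a difference was 0.21. ATF3 was 2.81-fold higher in the HCT116* 8/3 c7 table than in the HCT116 5/4 table, 1 of 20 genes of the ATF4 branch (5.00%, against 1.41% of all genes). STC2 was 2.01-fold lower there, again 1 of 20, against 3.42% of all genes. The median was -0.29 over the ATF4 branch and 0.12 over the chaperone branch, and CHAC1, ASNS and PHGDH were lower in the HCT116* 8/3 c7 table, with differences of -0.82, -0.65 and -0.68. Whether the difference in RPE1 exceeds that in HCT116 was not tested. A mean over a line and its parent does not show which of them carries a difference, and the RPE1 tables differ in the gained chromosomes and in H2B-GFP, which cannot be told apart. The HCT116 tables also differ in the gained chromosome and in H2B-GFP. In the paper's list of lines, HCT116 and HCT116 5/4 have another origin than HCT116*. These differences between the HCT116 tables cannot be told apart either. None of the 47 genes lies on chromosome 21. On chromosome 5 lie CANX and STC2, and on chromosome 12 HSP90B1, DDIT3, SHMT2 and ALDH1L2. None of these is among the 6 genes past 2-fold between the RPE1 tables. The part of the gained chromosomes in the differences was not tested.

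**Figure D5:**
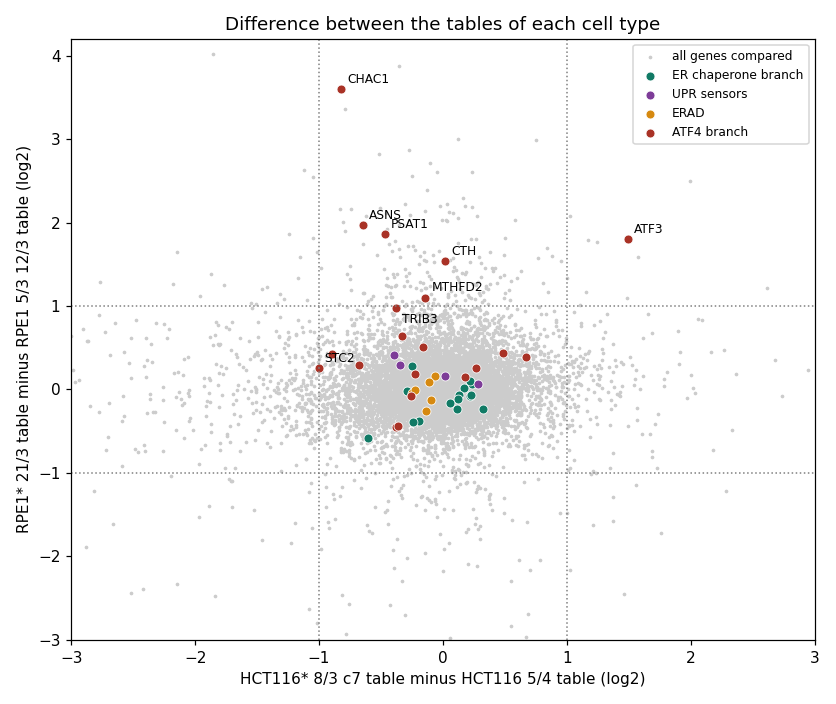
Log2 difference between the tables of HCT116 (x axis) and of RPE1 (y axis) for all 12764 genes compared (grey) and the 45 members (coloured by list), with dotted lines at 2-fold; 55 genes lie outside the axes. CHAC1, ASNS, PSAT1, ATF3, CTH and MTHFD2 stand above the upper line. The chaperone genes stay within 2-fold on both axes, as do most genes.

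Other genes of the pathways were read from 2 further lists. Of 28 further genes of the ATF4 pathway, 27 were compared. Against 1.79% of all genes, 6 (22.2%) were at least 2-fold higher in the RPE1* 21/3 table, with 0 lower against 1.28%. They were the amino acid transporter genes SLC7A5 (4.14-fold), SLC1A4 (2.61-fold) and SLC3A2 (2.32-fold), PCK2, a mitochondrial enzyme of gluconeogenesis (3.35-fold), the transcription factor JDP2 (2.92-fold) and CBS, which makes cystathionine (3.35-fold). CBS lies on chromosome 21, which 1 of the lines in that table gained. The list's median was 0.48, with 22 of 27 above 0, against 50.8% of all genes. Between the cell types, CBS was 1 gene higher in RPE1, from means of 3.36 and 2.26 in the HCT116 tables to 552 and 1525, and PYCR1 and GDF15 were lower. These shares, 3.70% higher and 7.41% lower, were below those of all genes, 8.65% and 17.2%. GDF15, a secreted stress cytokine, had means of 4368 and 3453 in the HCT116 tables and 4.74 and 3.59 in the RPE1 tables. CBS and GDF15 passed the minimum mean only through the cell type where they were high, so that nothing is read from their calls.

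Of 36 further genes of ER protein handling, 34 were compared, and 0 were at least 2-fold higher or lower in the RPE1* 21/3 table. That is near the shares of all genes, 1.79% higher and 1.28% lower. The median of these 34 genes was 0.037, within a range from -0.30 to 0.52. Between the cell types this list lay at a median of 0.37, with 26 of 34 genes above 0, where 65.2% of all genes were below 0. CREB3L1, an ER-anchored transcription factor of secretory cells, had means of 5.41 and 8.14 in the HCT116 tables and 4764 and 4081 in the RPE1 tables. CREB3L1 passed the minimum mean only through the RPE1 tables, so that nothing is read from its call. ERO1LB, an ER oxidase, and PDIA5, a disulfide isomerase, were lower in RPE1, with log2 differences of -1.78 and -1.85. The shares called, 2.94% higher and 5.88% lower, were below those of all genes, 8.65% and 17.2%.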

How the data were processed

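The authors removed adapters with cutadapt, mapped reads to hg19 with TopHat2 2.0.10, keeping 1 location per read, counted them on exons of RefSeq genes with featureCounts 1.4.3 and normalized them with DESeq2. The signal used is the deposited mean of the normalized counts over the 6 libraries of a line and its parent. The other 5 columns of each table, the fold change, its standard error, the statistic and its p-values, hold the authors' own comparison and were not used. A count model over single libraries had been planned, but single-library values were not at hand, so no test was made. Depth per library is unknown from these means.

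Means were scaled to CPM over the 13107 shared genes with no pseudocount, and genes with a mean over the tables of at least 10 were kept. A gene was called apart between cell types where each mean of one was at least 2 times each mean of the other. Lengths and chromosomes came from GENCODE on GRCh37, the same assembly as hg19, for 47 of 47 genes, with ERO1L matched by its current symbol ERO1A. Promoters were those of RefSeq on GRCh38.p14, matched by symbol. Values are given for the 3 members of each list with the largest difference and the highest level per kb, for those under 10 in any table, and for HSPA5, XBP1, ATF4 and DDIT3. Other members were named after their values were seen. The members and lists were chosen with earlier results of these data known. Other settings tried were no minimum and a minimum of 100, other scalings, a pseudocount, other folds, other lengths and leaving out a table. Python 3.11.15 was used, with matplotlib 3.10.9, pandas 2.3.3 and numpy 2.4.6.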

Additional observations from a re-analysis of the deposited data

How the results depend on the processing

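No paired analysis was possible because values of single libraries were not used, and for the same reason no replicate could be left out, and the count model and its alternatives were not run. Of 101 recomputed counts, medians and balances, 84 stayed within 1.5 times, for counts, or within the spread between tables. Another 16 moved, and 1 changed sign. Some of the 84 could not move, because a scaling cancels in a balance within a table. Leaving out the minimum mean also changed none of the values. The spread used for the balances rested mostly on the gap between the RPE1 tables, 2.86 against 1.87, so that staying within it says little. Among single genes a pseudocount of 1 moved NUPR1, ALDH1L2 and CHAC1 by more than 0.5 on the log2 scale, as given above. The median difference of the ER chaperone branch, -0.32, became 0.019 with median-of-ratios scaling, which by construction moves the median of all genes, and was -0.26 with the means as deposited. It was -0.19 without the HCT116 5/4 table, -0.22 without HCT116* 8/3 c7, -0.28 without RPE1 5/3 12/3, and -0.20 without RPE1* 21/3. The 6 members lower in RPE1 became 11 at a fold of 1.5 and 12 without the RPE1* 21/3 table, where fewer pairs have to pass. The shares of all genes at these settings were not computed, so that nothing is read from these counts. The log2 balance of chaperone over ATF4 branch, in the order of tables used above 1.94, 1.93, 2.86 and 1.87, was 0.92, 0.97, 1.49 and 0.99 per kb of coding length, a setting added after seeing the data in place of the planned protein table. With summed levels it was 1.34 in both the HCT116 5/4 and the RPE1* 21/3 table and 1.82 in the RPE1 5/3 12/3 table, without length 2.88 in the HCT116* 8/3 c7 table, and with ERO1L among the chaperones 1.22 in the RPE1* 21/3 table. The cause of these changes was not tested. The count of members higher in the RPE1* 21/3 table was between 4, at a fold of 3, and 8, at a fold of 1.5. The shares of all genes at these folds were not computed. With the means as deposited the count was 5, against 1.06% of all genes, and MTHFD2 did not pass.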
